A study of Mus musculus with 23 samples.

Results

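The killer lectin-like receptor genes (Klr) were followed across 23 mouse RNA libraries. Every row of the deposited count table whose symbol begins with Klr, a letter from a to k and a digit was taken, which gave 26 of 22488 genes. They comprise 11 Klra, 5 Klrb, 3 Klrc, 2 Klrg, 2 Klri and 1 each of Klrd, Klre and Klrk, and all 26 lie on chromosome 6 in GENCODE M21 (GRCm38). The libraries were made to test a low-input protocol, in which cDNA made with an oligo-dT primer is cut and tagged by Tn5 transposase. Libraries of CD3+ T cells from spleen were made from 100, 500, 1000 and 10000 cells (n = 3 each). Libraries of diluted RNA were made from 0.1 ng (n = 2) and from 0.5, 1 and 5 ng (n = 3 each). All samples carry the strain label C57 and an age of 6 to 18 weeks, and no genotype or treatment is given. The RNA is spleen RNA in the series design and RAW 264.7, a macrophage line, in the sample labels, so it is called diluted RNA here.

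Klr proteins are C-type lectin-like receptors, most of them encoded in the natural killer (NK) gene complex. NK cells carry them to read MHC class I and stress ligands on other cells, and memory-like CD8 T cells, gamma delta T cells and NKT cells carry some of them as well. Inhibitory members signal through an immunoreceptor tyrosine-based inhibitory motif (ITIM) in the cytoplasmic tail, which recruits the phosphatase SHP-1. Activating members have no ITIM and signal through adaptors such as DAP12 and DAP10.

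The first 60 coding bases of 10 members are shown because the ITIM, in those that hold it, lies there, at the cytoplasmic end. They were read from the APPRIS principal transcript in GENCODE M21 (GRCm38), 5′ to 3′, and capitals mark the codons of the ITIM.
Klra7 (Ly49G): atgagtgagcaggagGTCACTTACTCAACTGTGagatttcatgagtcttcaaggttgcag
Klra6 (Ly49F): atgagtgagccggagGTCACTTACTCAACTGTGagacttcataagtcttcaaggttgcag
Klra3 (Ly49C): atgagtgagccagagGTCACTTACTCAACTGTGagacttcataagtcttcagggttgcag
Klra9 (Ly49I): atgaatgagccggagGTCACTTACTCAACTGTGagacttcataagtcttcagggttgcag
Klra4 (Ly49D): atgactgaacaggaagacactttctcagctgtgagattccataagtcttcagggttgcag
Klra8 (Ly49H): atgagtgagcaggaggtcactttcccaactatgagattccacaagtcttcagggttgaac
Klrc1 (NKG2A): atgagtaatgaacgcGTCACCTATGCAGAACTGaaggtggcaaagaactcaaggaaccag
Klrc2 (NKG2C): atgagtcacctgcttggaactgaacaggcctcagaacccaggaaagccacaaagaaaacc
Klrd1 (CD94): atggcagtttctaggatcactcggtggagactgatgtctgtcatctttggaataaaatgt
Klrk1 (NKG2D): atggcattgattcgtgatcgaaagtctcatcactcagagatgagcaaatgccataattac
The motif was searched by translation in the first 50 codons, and 14 of the 26 members (53.8%) hold it. Of 21590 genes with a complete annotated coding start, 6.22% hold it in the same window. Among the 11 Ly49 receptors (Klra), 9 hold it, and Klra4 and Klra8, the activating receptors Ly49D and Ly49H, do not. Counted from the A of the start codon, Klra4 and Klra8 each match Klra7 at 51 of 60 bases, and both have the substitution A23T (Klra7 base first), in the codon for the motif's tyrosine. Klra7 and Klra6 match at 57 of 60 bases, Klra3 and Klra9 at 58, and Klrc2 and Klrc3 at all 60. Counts are uncertain for members whose transcripts share longer stretches with another gene. Of the 50-base windows in a member's transcripts, 39.8% for Klra10, 38.6% for Klrc1, 36.3% for Klrc3, 33.1% for Klra8, 31.5% for Klra9 and 20.7% for Klra3 also occur in another gene, against 12.3% for Klra7, 4.68% for Klra4, 2.62% for Klra6 and 0% for Klrd1 and Klrk1. Exons of Gm44511 on the same strand cover 26.9% of Klrb1b and 13.9% of Klrb1c.

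Library totals ran from 1737067 to 7908638 counts (median 3586180), and the 26 members took 511 to 2570 of them. T cell markers made up 0.483 to 0.880% of the counts of the T cell libraries and 0.185 to 0.212% of the RNA libraries. B cell markers made up 2.14 to 2.70% of the RNA libraries, and macrophage and monocyte markers 0.245 to 0.325%. Neutrophil markers made up 0.329 to 0.487% of them and erythroid markers 0.257 to 0.448%. The RNA libraries thus held markers of several blood cell lineages besides macrophages. Which of their source labels is right was not tested. In 100-cell replicate 3, B cell markers reached 1.17% and neutrophil markers 0.191%, the highest of the T cell libraries. The tissue-restricted olfactory and vomeronasal receptor genes served as a background: 55.1 to 87.8% of these 1462 genes had a count in a T cell library, against 11.3 to 25.5% in an RNA library. Their 95th percentile was 1.22 CPM (a count scaled to the library total) per kb of exon at 10000 cells and 0.147 at 5 ng. Of the 26 members, 22 lay above it at 10000 cells and 26 at 5 ng, but only 17 at 100 cells and at 500 cells, 19 at 1000 cells and 18 at 0.1 ng. A low level in a T cell library can therefore not be told apart from this background.

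The family was expressed in both materials, and Klrd1 took a larger share of it in most T cell libraries. The 26 members summed to 315 ± 43.5 CPM at 100 cells, 296 ± 21.9 at 500, 284 ± 6.30 at 1000 and 208 ± 8.79 at 10000 (SD, n = 3). In diluted RNA they summed to 328 ± 29.7 CPM at 0.1 ng (SD, n = 2), and to 373 ± 17.4 at 0.5 ng, 339 ± 19.1 at 1 ng and 326 ± 18.0 at 5 ng (SD, n = 3). Klrd1 alone took 12.9 to 41.3% of the family's counts in T cell libraries and 10.0 to 14.9% in RNA libraries. All 26 members summed to 198 to 347 CPM in the 12 T cell libraries and to 307 to 391 CPM in the 11 RNA libraries, which overlap. The 25 members other than Klrd1 summed to 121 to 249 CPM in the T cell libraries and to 267 to 350 CPM in the RNA libraries, with no overlap. That separation depends on leaving out Klrd1, which was higher in T cells. As a sum over chosen members it was given no test. In bulk RNA, fewer cells carrying a receptor and less of its RNA per cell cannot be told apart.

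**Figure D1:**
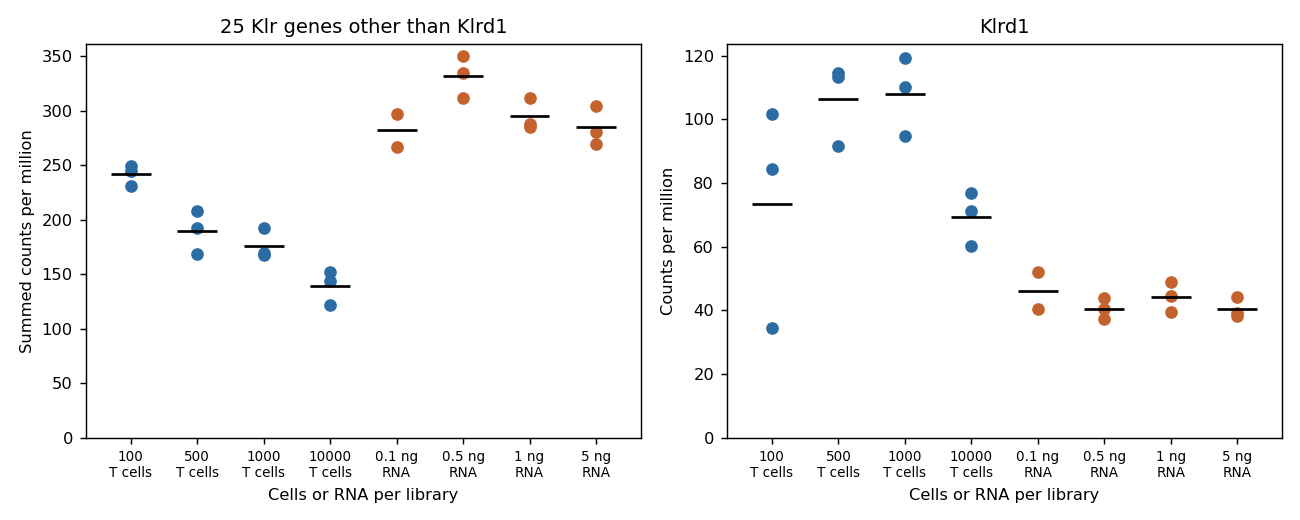
Summed CPM of the 25 Klr genes other than Klrd1 (left) and CPM of Klrd1 (right) in each library, against the amount of input; each point is 1 library and a bar marks the mean of its group. Left, T cell libraries lie between 121 and 249 CPM and RNA libraries between 267 and 350. With Klrd1 included the sums overlap, at 198 to 347 CPM in T cell libraries and 307 to 391 CPM in RNA libraries. Right, the highest Klrd1 value is 119 CPM among T cell libraries and 52.0 CPM among RNA libraries.

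Each material was compared at 4 matched ranks of input with no library in common, and once over all 23 libraries with the inputs weighted equally. The ranks of cell number and ng are not equal amounts. The T cell libraries started from cells and the others from diluted RNA, so material and preparation cannot be told apart. Higher or lower in T cells here means in the T cell libraries. Over all libraries 26 members were tested with edgeR, of which 6 were higher and 11 lower in T cells at an adjusted p under 0.05. Of all genes tested 38.7% were higher and 17.8% lower (56.6% called). The median log2 fold change was -0.46 over the members and 0.36 over all genes. The 6 higher members were Klrd1, Klra1, Klra5, Klra6, Klrb1 and Klrg1. The 11 lower ones were Klrk1, Klrc2, Klre1, Klri2, Klrb1b, Klrb1c, Klra2, Klra3, Klra4, Klra8 and Klra9. Only Klra4 had T cell libraries that all lay below all RNA libraries (background 3.58%), and no member had the opposite order (3.34%). Without 100-cell replicate 3, 7 Klr members were higher and 14 lower, and without the 100-cell and 0.1 ng groups 4 were higher and 12 lower. The shares of all genes called in these refits are not given here, so the counts are not read as a result about the family.

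In 10000 T cells against 5 ng RNA, the deepest pair of groups, 22 members were tested and 2 were higher and 10 lower (28.7% and 27.3% of all genes, 56% called). In 1000 cells against 1 ng, 19 were tested, with 2 higher and 6 lower (20.1% and 20%, 40% called). In 500 cells against 0.5 ng, 21 were tested, with 1 higher and 7 lower (19% and 18.1%, 37.1% called). In 100 cells against 0.1 ng none of the 19 members tested passed, with 3 at an unadjusted p under 0.05 and 0 by DESeq2, where edgeR called 0.0535% of all genes. With all 8 groups in 1 fit, which shares 1 estimate of the spread, 8 Klr members passed there. Many more of all genes passed in that fit too, as given in the last section. The members' median log2 fold change was -0.79, -0.78, -0.42 and -0.33 in these comparisons in turn, against 0.03, 0.04, 0.06 and 0.09 over all genes. The libraries of T cells and RNA did not overlap for 2 members higher and 9 lower at 10000 cells against 5 ng (36.8% and 24.7% of all genes), 2 and 7 at 1000 cells (26.8% and 23.6%), 3 and 7 at 500 cells (26.4% and 22.3%) and 5 and 4 at 100 cells (21.3% and 16.2%). Klrk1, Klre1, Klri2, Klra4 and Klra8 were lower in T cells in each of the first 3 comparisons, and Klrd1 was higher in each of them. Leaving out 1 library ended some of these calls: for Klre1 at 500 cells 500-cell replicate 1 or 3 (adjusted p = 0.124 and 0.122) or 0.5 ng replicate 2 or 3 (0.0795 and 0.140), and for Klri2 at 1000 cells 1000-cell replicate 1 or 3 (0.0799 and 0.114) or any 1 ng replicate (0.0518, 0.0663 and 0.163).

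**Figure D2:**
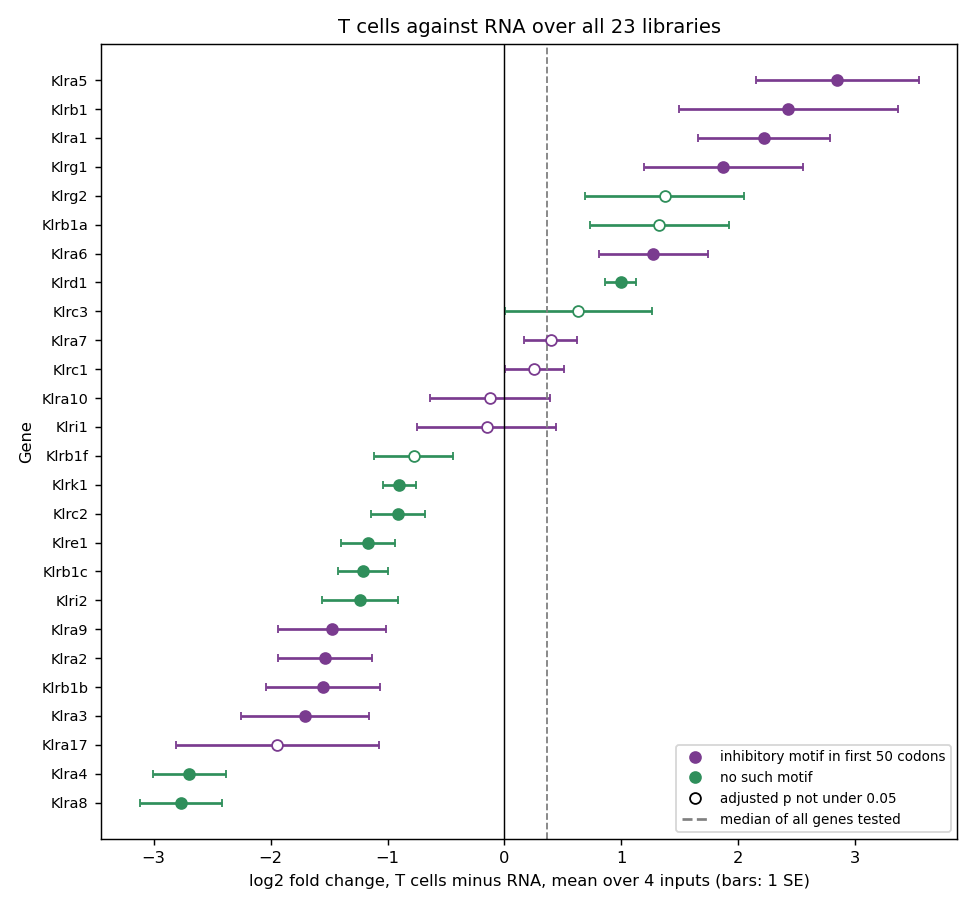
Log2 fold change of the 26 Klr genes, T cells minus RNA over all 23 libraries, with 1 SE. Filled points have an adjusted p under 0.05, colour marks the ITIM, and the dashed line is the median of all genes tested (0.36). Klra4 and Klra8 lie lowest, at -2.69 and -2.77, and Klrd1 has the shortest bar (SE 0.13).

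Klrd1 encodes CD94, the chain that joins an NKG2 chain to form receptors for Qa-1. It was the highest member per kb in every group, at 54.2 CPM per kb at 10000 cells and 31.6 at 5 ng. Its 3 libraries gave 60.2, 76.9 and 71.1 CPM at 10000 cells, and 39.3, 38.2 and 44.1 CPM at 5 ng. At 1000 cells it stood at 94.8, 110 and 119 CPM, and at 1 ng at 44.6, 39.5 and 48.8 CPM. At 500 cells it stood at 91.6, 113 and 115 CPM, and at 0.5 ng at 40.6, 37.4 and 43.7 CPM. In each of these comparisons every T cell library lay above every RNA library. The log2 fold changes were 0.66 ± 0.13 (SE, adjusted p = 1.45e-05), 1.28 ± 0.16 (adjusted p = 6.49e-07) and 1.38 ± 0.20 (adjusted p = 7.27e-06). The 100-cell libraries were spread widely, at 34.3, 84.4 and 102 CPM, and overlapped the 0.1 ng libraries at 52.0 and 40.3 CPM (log2 fold change 0.69 ± 0.54, adjusted p = 0.579). Over all libraries the change was 0.99 ± 0.13 (adjusted p = 5.26e-07), which held in all 31 alternatives run, between 0.87 and 1.08.

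Of the NKG2 chains, Klrc1 and Klrc3 did not pass over all libraries and Klrc2 was lower in T cells. Whether they differed from Klrd1 was not tested. Klrc1 encodes NKG2A, the inhibitory partner of CD94. It stood at 6.97, 10.2 and 13.5 CPM at 10000 cells and at 11.99, 11.5 and 16.8 CPM at 5 ng, and the groups overlapped (log2 fold change -0.51 ± 0.28, adjusted p = 0.118). At 100 cells Klrc1 reached 53.5, 20.5 and 19.9 CPM against 8.15 and 9.21 CPM at 0.1 ng, a difference that did not pass (adjusted p = 0.320). Klrc2, the activating partner NKG2C, stood at 11.2, 6.89 and 14.1 CPM at 10000 cells and at 16.95, 21.8 and 12.01 CPM at 5 ng. These ranges overlapped, and the call at a log2 fold change of -0.77 ± 0.27 (adjusted p = 0.0115) was lost without 10000-cell replicate 2 (adjusted p = 0.0700) or 5 ng replicate 2 (adjusted p = 0.129). Over all libraries the log2 fold change of Klrc2, lower in T cells, was -0.91 ± 0.23 (adjusted p = 0.00148), from a median of 10.4 CPM (6.89 to 21.6, n = 12) against 18.1 CPM (12.01 to 47.2, n = 11).

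Klrk1 encodes NKG2D, the activating receptor for stress ligands, and was lower in T cells than in RNA. It stood at 28.2, 25.1 and 23.8 CPM at 10000 cells and at 63.1, 55.9 and 55.4 CPM at 5 ng, with no overlap (log2 fold change -1.29 ± 0.15, adjusted p = 4.35e-11). At 1000 cells it had 33.0, 33.9 and 40.0 CPM against 46.2, 73.5 and 62.8 CPM at 1 ng (log2 fold change -0.78 ± 0.21, adjusted p = 0.00447). At 500 cells it had 19.2, 31.8 and 34.2 CPM against 60.1, 69.3 and 64.5 CPM at 0.5 ng (log2 fold change -1.19 ± 0.26, adjusted p = 0.000824). In the 100-cell libraries Klrk1 was at 46.3, 50.3 and 36.7 CPM, inside the span of the 0.1 ng libraries at 74.9 and 33.4 CPM. Per kb of exon Klrk1 stood at 3.58 CPM at 10000 cells, below Klrc1 (5.16) and Klra7 (8.72).

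Klre1 and Klri2 belong to a rodent receptor in which KLRE1 pairs with KLRI1 or KLRI2. Klre1 had 9.20, 11.03 and 11.2 CPM at 10000 cells and 22.8, 22.2 and 26.9 CPM at 5 ng (log2 fold change -1.31 ± 0.23, adjusted p = 1.70e-06). Klri2 had 2.79, 2.76 and 2.65 CPM at 10000 cells and 17.2, 18.7 and 15.4 CPM at 5 ng (log2 fold change -2.75 ± 0.33, adjusted p = 1.30e-10). Neither pair of groups overlapped, although at 0.70 CPM per kb Klri2 lay within the receptor background of the 10000-cell libraries. Over all libraries Klre1 was lower by a log2 fold change of -1.17 ± 0.23 (adjusted p = 0.000115), and Klri2 by -1.24 ± 0.32 (adjusted p = 0.00200). The pooled value of Klri2 turned to 0.31 (adjusted p = 0.681) without replicate 1 at 0.1 ng, where the remaining 0.1 ng library had 0 counts of it, and its call was lost with voomWithQualityWeights (adjusted p = 0.0694).

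The Klrb genes encode NKR-P1 receptors, among them the NK1.1 antigen, Klrb1c. Klrb1c had 12.3, 8.82 and 10.6 CPM at 10000 cells and 31.7, 27.5 and 28.1 CPM at 5 ng, with no overlap (log2 fold change -1.57 ± 0.22, adjusted p = 6.76e-09). It was also lower at 500 cells than at 0.5 ng (-1.43 ± 0.42, adjusted p = 0.00916), a call lost without 0.5 ng replicate 2 (adjusted p = 0.0786). At 1000 cells it had 22.0, 21.7 and 6.39 CPM, and 2 of these libraries reached the span of the 1 ng libraries at 20.6, 27.7 and 25.6 CPM. Klrb1b, an inhibitory receptor for Clr-b, was lower at 10000 cells, at 1.67, 1.10 and 0.588 CPM against 3.80, 2.94 and 6.07 CPM at 5 ng (log2 fold change -2.01 ± 0.62, adjusted p = 0.00453). That call was lost without 5 ng replicate 3 (adjusted p = 0.0532), and at 0.50 CPM per kb Klrb1b lay within the background at 10000 cells. Klrb1b also lay within it at 100, 500 and 1000 cells. Klrb1f had a median of 5.42 CPM in T cells (1.04 to 13.0, n = 12) and 9.48 CPM in RNA (3.24 to 18.0, n = 11), a difference at adjusted p = 0.0504 that passed in 9 of 31 alternatives (adjusted p down to 0.0126). Klrb1 was called higher in T cells (2.43 ± 0.94, adjusted p = 0.0294) from medians of 2.59 and 0.506 CPM, with 0 counts in both 0.1 ng libraries. At 100 cells and at 1000 cells Klrb1 lay within the receptor background. Leaving out 100-cell replicate 1 (adjusted p = 1.00), 1000-cell replicate 3 (0.0602), or replicate 1 (0.0651) or 2 (0.0606) at 0.1 ng ended the Klrb1 call.

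The activating Ly49 receptors had the lowest log2 fold changes of the 26 members over all libraries, at -2.77 for Klra8 and -2.69 for Klra4. Klra8 encodes Ly49H, which recognises a cytomegalovirus protein, and Klra4 encodes Ly49D, which recognises an MHC class I molecule. Klra8 had 3.63, 2.76 and 2.35 CPM at 10000 cells and 28.6, 20.7 and 20.2 CPM at 5 ng (log2 fold change -3.09 ± 0.30, adjusted p = 1.58e-13). At 1000 cells it had 3.81, 1.10 and 5.59 CPM against 29.1, 23.7 and 24.6 CPM at 1 ng (-2.90 ± 0.44, adjusted p = 8.59e-06). At 500 cells it had 4.47, 0 and 1.80 CPM against 30.8, 29.1 and 30.5 CPM at 0.5 ng (-3.88 ± 0.61, adjusted p = 2.70e-05). Klra4 followed the same order. It had 5.58, 1.93 and 2.06 CPM at 10000 cells against 18.0, 18.6 and 21.2 CPM at 5 ng (-2.69 ± 0.32, adjusted p = 1.37e-10), and the log2 fold changes at 1000 and 500 cells were -2.08 ± 0.53 (adjusted p = 0.00269) and -3.40 ± 0.54 (adjusted p = 3.40e-05). Every T cell library lay below every RNA library for both genes in these 3 comparisons, and at 500 cells both lay within the receptor background. Without 100-cell replicate 3, which had the highest Klra8 level among the T cell libraries (14.4 CPM), neither call over all libraries was lost. For Klra4, Klra8, Klrk1 and Klrd1 every call between the materials was kept in all 67 alternatives run for each gene, which include leaving out each library in turn.

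**Figure D3:**
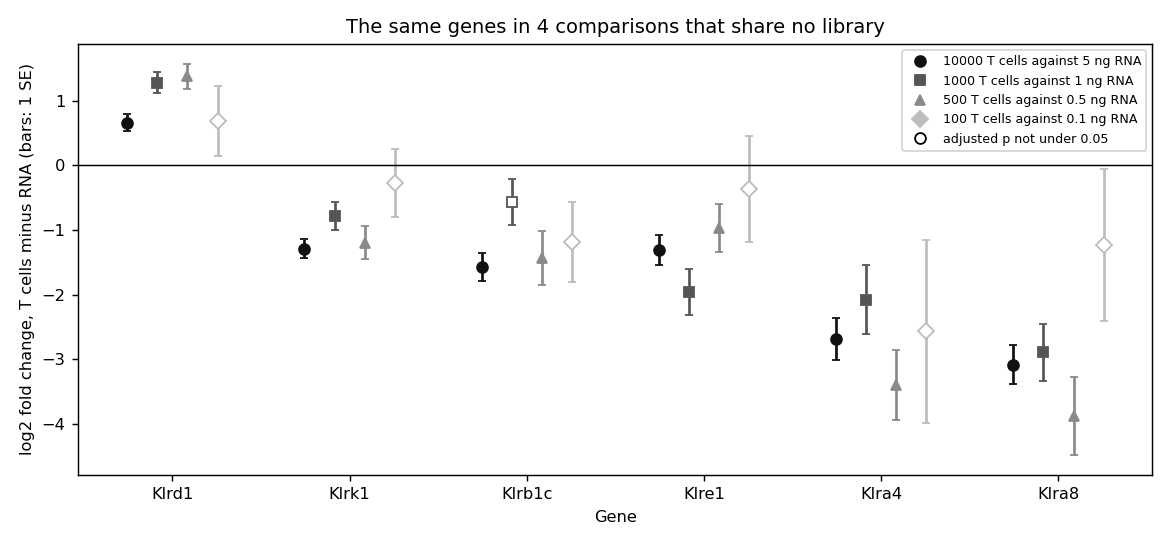
Log2 fold change (1 SE) of 6 Klr genes in the 4 comparisons of T cells with diluted RNA that share no library; open symbols have an adjusted p that is not under 0.05. Klrd1 lies above 0 in all 4 comparisons and the other 5 genes below it, and no symbol of the 100-cell comparison is filled.

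Of the 9 Ly49 genes with the motif, 3 were higher, 3 lower and 3 not past the threshold over all libraries, where 38.7% of all genes were higher and 17.8% lower. Klra7 (Ly49G), the highest of them per kb at 10000 cells, had 11.2, 10.5 and 11.5 CPM there and 15.1, 9.08 and 15.9 CPM at 5 ng, and did not pass in any comparison (adjusted p = 0.135 over all libraries). Klra2 (Ly49B) was lower, at 4.46, 1.93 and 1.76 CPM against 14.03, 9.74 and 11.4 CPM at 5 ng (log2 fold change -2.20 ± 0.39, adjusted p = 1.94e-06), and was lower again at 1000 cells (-1.70 ± 0.54, adjusted p = 0.0137), where the call was lost without 1 ng replicate 1 (adjusted p = 0.124). Klra9 (Ly49I) was lower at 5.58, 1.10 and 4.12 CPM against 12.3, 10.3 and 9.86 CPM (-1.69 ± 0.39, adjusted p = 0.000153). With all 8 groups in 1 fit the calls at 10000 cells of Klra9 (adjusted p = 0.183), Klra6 (0.268), Klrc2 (0.242) and Klrb1b (0.155) were lost, as were those of Klra2 (0.110), Klra6 (0.103) and Klri2 (0.156) at 1000 cells and of Klre1 at 500 cells (0.0836). Klra3 (Ly49C), which shares windows with Klra9, was lower over all libraries, from a median of 0.897 CPM (0 to 7.94, n = 12) against 4.32 CPM (1.09 to 10.5, n = 11), at a log2 fold change of -1.70 ± 0.55 (adjusted p = 0.00991). At 100, 500 and 1000 cells Klra3 lay within the receptor background. It was also lower at 500 cells than at 0.5 ng (adjusted p = 0.0119), a call lost without 500-cell replicate 2 (adjusted p = 0.0561) or 0.5 ng replicate 1 (adjusted p = 0.0929).

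Klra6 (Ly49F), Klra5 (Ly49E) and Klra1 (Ly49A) were the inhibitory Ly49 genes called higher in T cells. Klra6 had 7.81, 2.76 and 7.05 CPM at 10000 cells and 3.22, 1.33 and 1.64 CPM at 5 ng, which overlap (log2 fold change 1.40 ± 0.54, adjusted p = 0.0245). Leaving out 10000-cell replicate 1 or 3, or 5 ng replicate 2 or 3, ended that call (adjusted p = 0.149, 0.104, 0.0968 and 0.0774), and the pooled value of 1.27 ± 0.47 (adjusted p = 0.0217) missed the threshold without 0.1 ng replicate 1 (adjusted p = 0.0504). At 1000 cells against 1 ng Klra6 was called as well (2.08 ± 0.71, adjusted p = 0.0221), and that call was lost without 1000-cell replicate 2 (adjusted p = 0.157) or without 1 ng replicate 1, 2 or 3 (0.132, 0.0741 and 0.0515). Klra5 was higher over all libraries (2.85 ± 0.70, adjusted p = 0.00110), kept in all 31 alternatives. It had 17.2, 11.9 and 12.2 CPM at 100 cells, 4.47, 5.44 and 2.70 CPM at 500 cells, 1.69, 1.47 and 0 CPM at 1000 cells, and 1.12, 3.31 and 1.47 CPM at 10000 cells. RNA libraries had at most 1.60 CPM of Klra5, with 5 of the 11 at 0 counts. The libraries of 100 and 500 cells lay above all RNA libraries, those of 1000 and 10000 cells overlapped them, and at 1000 cells Klra5 lay within the receptor background. Klra1 had a median of 10.8 CPM in T cells (2.66 to 15.1, n = 12) and 4.93 CPM in RNA (0 to 14.7, n = 11). Its fitted log2 fold change of 2.22 ± 0.57 (adjusted p = 0.00169) rests on 0 counts in both 0.1 ng libraries: without the 100-cell and 0.1 ng groups it was 0.34 (adjusted p = 0.339).

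Klrg1 encodes an inhibitory receptor for cadherins that marks antigen-experienced T cells and mature NK cells. It had 9.76, 1.93 and 5.58 CPM at 10000 cells and 3.22, 6.67 and 5.31 CPM at 5 ng, and the ranges overlapped. As for Klra1, the fitted size depends on how 0 counts are treated and is no bound. Its pooled call (1.87 ± 0.68, adjusted p = 0.0209) also rests on 0 counts at 0.1 ng, and fell to 0.42 (adjusted p = 0.297) without the 100-cell and 0.1 ng groups. It was lost too without 0.1 ng replicate 1 (adjusted p = 0.0605) or 2 (adjusted p = 0.0537). The 6 members not described by level or call (Klra10, Klra17, Klrb1a, Klrc3, Klrg2 and Klri1) had group means between 0 and 8.58 CPM and passed in none of the 7 comparisons. Klra17 (Ly49Q) had 0 counts in the 3 libraries of 500 cells, and 15.95 CPM in 100-cell replicate 3.

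**Figure D4:**
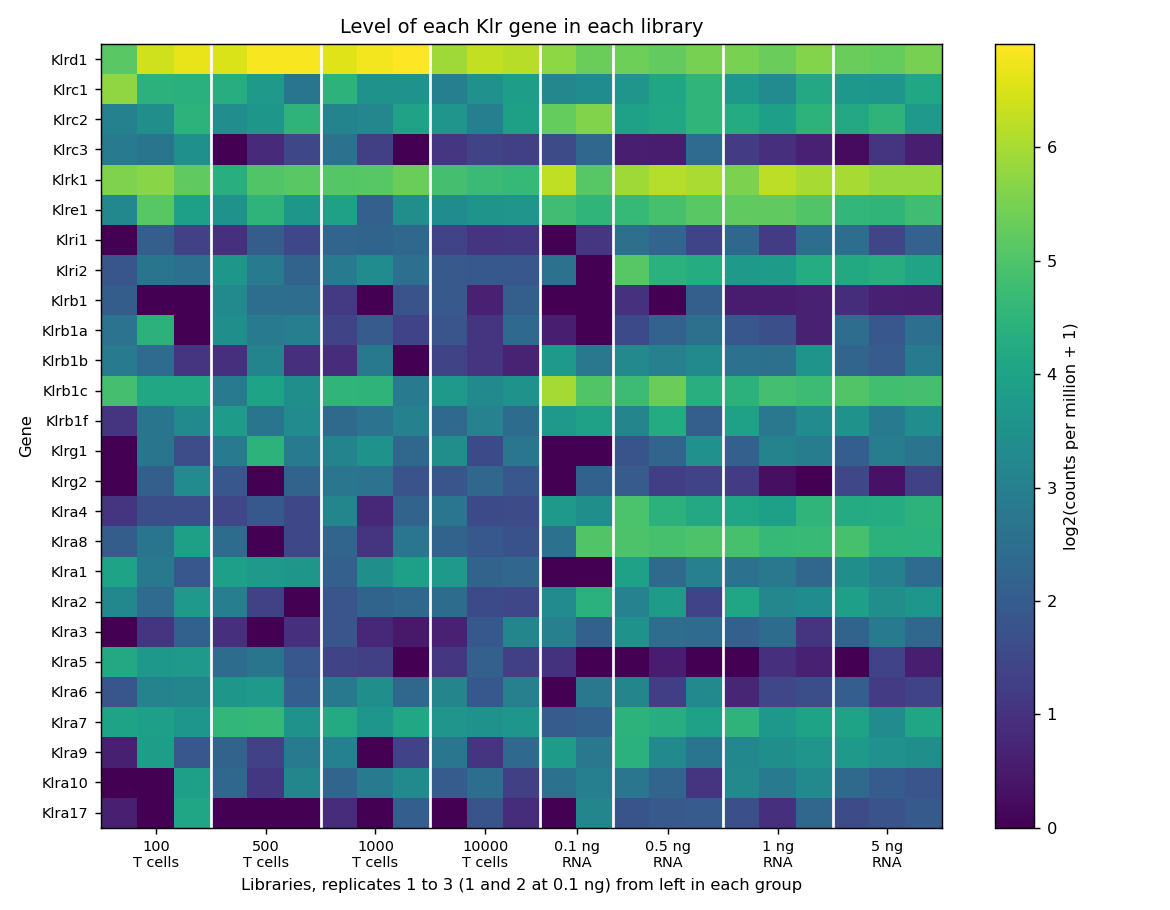
log2(CPM + 1) of the 26 Klr genes (rows) in the 23 libraries (columns), grouped by cells or RNA per library; white lines separate the groups. The Klrd1 row is brighter in T cell columns than in RNA columns, except in 100-cell replicate 1 (34.3 CPM). The Klra4 row is brighter in all RNA columns and the Klra8 row in most of them. Klra1 and Klrg1 are at 0 in both 0.1 ng columns.

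Split by the motif, the members without an ITIM were 1 higher, 7 lower and 4 not past the threshold over all libraries. The members with an ITIM were 5 higher, 4 lower and 5 not past. Of all genes 38.7% were higher and 17.8% lower, so the 5 of 14 higher lie near the background. Of the 5 higher members with the motif, Klra1, Klra6, Klrb1 and Klrg1 lost their call in at least 1 alternative, and Klra5 did not. The split follows gene subfamilies in part: it sets 2 against 9 among Klra genes, 3 against 2 among Klrb genes and 2 against 1 among Klrc genes. Whether the motif itself goes with the direction was not tested.

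Input was then followed within each material. A slope over log10 of the cell number called 0 of 22 members with edgeR (3 at an unadjusted p under 0.05, 0 by DESeq2), against 0.76% of all genes (0.476% rising and 0.284% falling with input). Of the 22 slopes 20 were negative, with a median of -0.32 against -0.03 over all genes. The share of negative slopes over all genes was not counted, so this is not read as a result about the family. The 3 were Klra5, Klrc1 and Klrk1, with log2 slopes per 10-fold more cells of -1.41 ± 0.43 (adjusted p = 0.132), -0.74 ± 0.25 (adjusted p = 0.188) and -0.34 ± 0.15 (adjusted p = 0.348). A slope over log10 of the RNA amount called 0 of 24 members (1 at an unadjusted p under 0.05), against 5.68% of all genes (2.12% rising and 3.56% falling), and DESeq2 called 1. The member at an unadjusted p under 0.05 was Klrc2, at -0.68 ± 0.22 (adjusted p = 0.0763). Klrc2 had 37.7 and 47.2 CPM at 0.1 ng, above the 12.01 to 22.1 CPM of all other RNA libraries.

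Compared with 10000 cells in fits of their own, which share the 10000-cell libraries, Klrd1 was higher at 1000 cells (0.65 ± 0.15, adjusted p = 0.00526) and at 500 cells (0.61 ± 0.16, adjusted p = 0.0373), and was the only member called in either (background 3.27% and 3.21%). The call at 1000 cells was lost without 10000-cell replicate 1 (adjusted p = 0.0940). The call at 500 cells was lost without any 1 of 5 of its 6 libraries (adjusted p = 0.0799 to 0.265), all but 500-cell replicate 1. Klrg1 and Klra1 were called higher at 5 ng than at 0.1 ng (11.2% of all genes), with all 3 libraries at 5 ng above 0. No member was called at 0.5 ng or 1 ng against 5 ng with edgeR, where 5.09% and 0.0238% of all genes were, nor at 100 cells against 10000, where 0% were, with 1, 2 and 4 members at an unadjusted p under 0.05. Against a floor of 3 counts over the 0.1 ng group, 5 ng was at least 8.76-fold higher for Klra1 and at least 6.25-fold higher for Klrg1. Whether the difference between materials changed from one input to the next was tested as an interaction: 6.11% of all genes passed and 0 members did (5 at an unadjusted p under 0.05, DESeq2 not run).

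The genes that work with the family were taken from lists. Of 19 NK and cytotoxic markers outside it, 5 were higher and 9 lower at 10000 cells than at 5 ng, where 28.7% of all genes were higher and 27.3% lower. The 3 with the highest level were Il2rb (interleukin-2 receptor beta, 460 ± 25.4 against 249 ± 2.55 CPM), Txk (a T and NK cell kinase, 191 ± 7.15 against 56.0 ± 5.92 CPM) and Ccl5 (a chemokine, 79.3 ± 5.87 against 150 ± 4.18 CPM; SD, n = 3). Ncr1 (NKp46, which marks NK cells) and Gzma, chosen after their values were seen, were lower in T cells, at 3.78 ± 1.83 against 22.3 ± 2.63 CPM and at 8.76 ± 4.91 against 76.4 ± 9.28 CPM (SD, n = 3). Others on the list, chosen in the same way, had higher means in T cells. These were Nkg7 (134 ± 9.58 against 77.0 ± 1.77 CPM), Eomes (79.3 ± 9.42 against 51.2 ± 2.09 CPM) and Cd160 (38.0 ± 4.50 against 10.4 ± 1.83 CPM). Ncr1 was at 0 in 2 of the 3 libraries of 100 cells and reached 31.9 CPM in replicate 3. The list as a whole took 0.0886 to 0.117% of the counts in T cell libraries and 0.0827 to 0.0984% in RNA libraries. Its part in the members' differences was not tested.

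Of 17 adaptors and proximal signalling genes, 7 were higher and 9 lower at 10000 cells than at 5 ng (28.7% and 27.3% of all genes). Tyrobp (DAP12, the adaptor of Ly49D and Ly49H) was lower by a log2 fold change of -3.99 ± 0.16 (adjusted p = 1.46e-31), and Hcst (DAP10, the adaptor of NKG2D) was higher at 0.83 ± 0.15 (adjusted p = 2.02e-06). Both were chosen after their values were seen. Lck was higher, at 1093 ± 23.01 against 276 ± 20.5 CPM, and Ptpn6 (SHP-1) lower, at 411 ± 20.2 against 748 ± 25.7 CPM, as was Syk, at 42.0 ± 6.40 against 844 ± 9.64 CPM (SD, n = 3).

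Among the ligands, 2 of 7 MHC class I genes were higher and 3 lower at 10000 cells than at 5 ng, and for these and the following lists the shares of all genes were 28.7% and 27.3%. Of the NKG2D ligands 3 were tested, with 1 higher and 1 lower, and of the Clec2 ligands of NKR-P1 receptors 3 were tested, with 2 lower. Of 3 cadherins, 2 were higher. All 3 were low, with means at 10000 cells and 5 ng of 8.66 and 3.98 CPM (Cdh1), 5.93 and 0.747 CPM (Cdh2) and 4.38 and 3.25 CPM (Cdh4). Whether they lay above the receptor background was not tested. Of 14 NK and innate-like T cell transcription factors 8 were higher and 6 lower, and of 13 other C-type lectins of the NK gene complex that were tested 2 were higher and 9 lower. All 14 T cell markers were higher, and all 10 B cell, 12 macrophage and monocyte, 9 neutrophil and 8 erythroid markers were lower, as were 7 of 9 dendritic cell markers, with 1 higher.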

How the data were processed

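The deposited table holds whole-number counts per gene symbol for 23 libraries, made by the authors with HISAT2 2.1.0 and featureCounts (no version) on genome build mm8, per the submitters' processing notes. Whether each mate of a read pair was counted is not given in the sources used here: 57.9 to 70.7% of nonzero counts were even. Floors cover counting error only. Groups come from the sample labels, which do not say whether replicates are separate animals, so p-values may measure technical spread. No 2 libraries held identical values.

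CPM is a count over the column total. Lengths and coding starts came from GENCODE M21 (GRCm38), and all 26 symbols matched a gene model. No coordinates are given because the builds differ. Comparisons used edgeR 4.0.16 under R 4.3.3 (filterByExpr, TMM, quasi-likelihood test, Benjamini-Hochberg adjustment over all genes tested, threshold 0.05), on the libraries compared only. Over all libraries, the mean of the 4 T cell groups was set against that of the 4 RNA groups. Values are mean ± SD for CPM and ± SE for log2 fold changes. The fits were tested on simulated counts. Members and lists were chosen with earlier results of these data known. Members with a group mean of at least 5 CPM were named, at most 14, plus any called member, and up to 3 genes of each list by level. The alternatives were DESeq2 1.42.0, its size factors in edgeR, no filter, thinning, voomWithQualityWeights (limma 3.58.1), replicate number as a block, all 8 groups in 1 fit and leaving out each library. Added after seeing the data were library totals alone, leaving out the 100-cell and 0.1 ng groups, and each lower input against the highest.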

Additional observations from a re-analysis of the deposited data

How the results depend on the processing

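Of the alternatives to the main counts and levels, 149 stayed within the limit set for a change (1.5 times for a count, 1 SD for a level) and 7 did not. With all 8 groups in 1 fit, 5 members passed in 1000 T cells against 1 ng RNA in place of 8, and 8 passed in 100 cells against 0.1 ng in place of 0. Fits of single inputs against the highest, chosen after seeing the data, called 1 member at 500 cells, 1 at 1000 cells and 2 at 0.1 ng, where the slopes called 0, and DESeq2 called 1 for the slope over RNA amount. The summed CPM of the Klr members at 5 ng was 350 on TMM effective library sizes in place of 326. Leaving out each library in turn gave 14 to 21 members over all libraries (21 without 100-cell replicate 3, 14 without 0.1 ng replicate 1), 10 to 13 at 10000 cells against 5 ng, 6 to 9 at 1000 against 1 ng, 7 to 9 at 500 against 0.5 ng and 0 elsewhere. For the fits over all libraries the shares of all genes called are not given here. Klri2 in the comparison over 4 inputs ranged from -1.48 to 0.31 when 1 library was left out, and from -1.93 to 0.31 over all 31 alternatives. It reversed without 0.1 ng replicate 1. Among all genes, calls moved from 8073 to 4269 at 10000 cells against 5 ng with all 8 groups in 1 fit. At 100 cells against 0.1 ng they moved from 7 to 3 with DESeq2 size factors, 703 with DESeq2, 696 with no filter, 1161 with the block, 4198 with all 8 groups, 545 without 100-cell replicate 3 and 0 without any other library. The slope over cell number gave 115 calls over all genes, but 261 with DESeq2, 188 with no filter and 49 with the block, and 181 without 100-cell replicate 1 and 14, 30 and 26 without 10000-cell replicate 1, 2 and 3. The slope over RNA amount gave 792, but 1660 with DESeq2, 1413 with no filter and 251 with the block, and 474 and 489 without 0.1 ng replicate 1 and 2. Leaving out 5 ng replicate 2 or 3 gave 508 and 506. In fits of single inputs against the highest, 0, 439 and 438 genes passed among all genes at 100, 500 and 1000 cells, and 1572, 639 and 3 at 0.1, 0.5 and 1 ng. With no filter on low counts the median of all genes at 10000 cells against 5 ng moved from 0.03 to 0.24 (log2). The labels give no pairing by replicate number, and over 77 pairs of libraries with 1 number the deviations from group means correlated at -0.02 to 0.02. With the replicate number as a block 18, 12, 7, 7 and 0 members passed in the comparisons of materials, from all libraries to 100 cells, and 0 and 0 for the slopes. The members took 511 to 2570 counts per library, which bounds the precision of counting. Calls of single members were also lost on thinning to the lowest total (Klrc2 at 10000 cells, Klri2 at 1000, Klre1 at 500), with the block (Klri2 and Klra6 at 1000, Klra3 at 500), with no filter (Klra6 at 1000) and with voomWithQualityWeights (Klri2, Klrg1 and Klrb1 over all libraries). The causes of these changes were not tested.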
